A study of Mus musculus with 5 samples.

Results

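The genes that build the mature red cell were followed in mouse LSK cells, a bone marrow fraction sorted as lacking lineage markers and carrying Sca1 and cKit, in which stem cells and multipotent progenitors of the blood are found. The 10 genes were named as a list of red cell effector genes (Car1, Car2, Ermap, Slc4a1, Rhag, Ank1, Add2, Hba-a1, Hba-a2 and Alas2) and were matched by symbol among the 24399 genes of the count table. The globin genes Hba-a1 and Hba-a2 carried identical counts in every library and count as 1, which leaves 9 separate measurements. All 9 passed the filter on low counts, as did 14565 genes in all. Bone marrow of C57BL/6 mice at 12 months of age was used, and its red cells were lysed before the sort, per the labels. Of the 5 libraries, 3 have KO in their title and 2 have WT. The title and the genotype field disagree for the former, since that field gives them as heterozygous; they are called KO-labelled here, and the others are given as wild type in both. Whether each library is a separate animal is not stated in the labels. The p-values therefore describe the spread among these libraries, which may be technical.

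A red cell is a membrane bag of haemoglobin. Haem made in the mitochondrion joins alpha and beta globin chains to carry oxygen, carbonic anhydrases convert carbon dioxide to bicarbonate, and the anion exchanger of the membrane passes bicarbonate to the plasma. A skeleton of spectrin and actin, tied to the membrane by ankyrin and adducin, gives the cell its shape. In bone marrow these genes are switched on in stages by transcription factors such as GATA1 and KLF1, from the early erythroid progenitor to the erythroblast, and most of their product is made after the LSK stage.

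Each library held 29964556 to 39691066 counts once a single transcript was kept per gene. A floor of 3 counts then equalled 0.076 to 0.1001 CPM, the usual scaling of counts to library size, which here includes edgeR's TMM factor. The genes of the sorted markers were present in each library: Kit stood at 1086 to 1227 CPM and Ly6a, which encodes Sca1, at 74.9 to 104.5 CPM. Kit was lower and Ly6a higher in every KO-labelled library than in WT, and neither passed the test (edgeR adjusted p = 0.499 and 0.175). KO library 1 stood apart from the other KO-labelled libraries, with correlations across genes on log2 CPM of 0.965 and 0.9645 with KO libraries 2 and 3, against 0.9797 between those libraries. WT library 1 correlated with the others at 0.9542 to 0.9706, the highest being with WT library 2. KO libraries 2 and 3 correlated with WT library 2 at 0.9728 and 0.9701, more than either did with KO library 1. The libraries thus did not group fully by label on this measure.

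Promoter windows of the genes show which words bound by the erythroid factors lie next to their start sites. RefSeq windows of build GRCm38.p6, from 250 bases before to 50 bases after the start, were found for 6 of the 10 genes (Ermap, Rhag, Add2, Hba-a1, Hba-a2 and Alas2). The GATA words AGATAA with its variant AGATAG, the related TGATAA with its variant TGATAG, and the CACCC-type word CCNCNCCC, the kind of site that KLF1 recognises, were searched on both strands. Matches are in capitals, each window is written 5′ to 3′ in the direction of the gene, and overlapping CACCC-type matches run together. The Ermap window lies on the minus strand (chr4:119189946-119190245). The windows of Rhag (chr17:40810899-40811198), Add2 (chr6:86028431-86028730), Hba-a1 (chr11:32283422-32283721) and Alas2 (chrX:150547167-150547466) lie on the plus strand.
Ermap: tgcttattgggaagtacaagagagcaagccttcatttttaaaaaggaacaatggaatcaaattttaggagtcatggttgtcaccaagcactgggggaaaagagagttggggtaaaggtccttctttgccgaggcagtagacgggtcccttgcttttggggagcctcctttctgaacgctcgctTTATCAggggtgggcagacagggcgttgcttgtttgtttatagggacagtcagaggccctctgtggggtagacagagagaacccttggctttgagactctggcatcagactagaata
Rhag: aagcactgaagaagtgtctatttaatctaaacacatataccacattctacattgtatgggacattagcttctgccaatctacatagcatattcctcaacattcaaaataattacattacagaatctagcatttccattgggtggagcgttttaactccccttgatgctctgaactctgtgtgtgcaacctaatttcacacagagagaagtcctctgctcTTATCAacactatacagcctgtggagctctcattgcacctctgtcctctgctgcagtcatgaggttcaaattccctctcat
Add2: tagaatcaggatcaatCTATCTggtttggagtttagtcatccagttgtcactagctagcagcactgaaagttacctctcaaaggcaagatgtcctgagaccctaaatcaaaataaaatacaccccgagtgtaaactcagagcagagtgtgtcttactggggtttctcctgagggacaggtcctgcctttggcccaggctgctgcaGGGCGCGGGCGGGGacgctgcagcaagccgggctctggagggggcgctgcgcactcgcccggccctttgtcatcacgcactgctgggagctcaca
Hba-a1: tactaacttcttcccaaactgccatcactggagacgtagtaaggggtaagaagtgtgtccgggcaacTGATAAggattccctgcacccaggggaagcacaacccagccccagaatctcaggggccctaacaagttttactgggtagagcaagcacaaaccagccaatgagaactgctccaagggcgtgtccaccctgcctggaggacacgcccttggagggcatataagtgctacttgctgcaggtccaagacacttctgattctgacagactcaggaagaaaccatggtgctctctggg
Alas2: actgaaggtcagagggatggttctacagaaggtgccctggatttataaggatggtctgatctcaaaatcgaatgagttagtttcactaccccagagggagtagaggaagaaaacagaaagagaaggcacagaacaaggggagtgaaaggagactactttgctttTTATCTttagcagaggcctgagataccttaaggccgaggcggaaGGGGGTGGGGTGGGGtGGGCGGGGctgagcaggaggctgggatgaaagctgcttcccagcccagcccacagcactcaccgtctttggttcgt
Each of the 6 windows held 1 GATA word, as did 29.8% of all 32851 windows of this length (at least 1 word). The word in the Rhag window starts 31 bases before the start site and that of Ermap 67 bases before it. Add2 held 2 matches of CCNCNCCC and Alas2 held 4, while the other windows held 0. Of all windows 49.5% held at least 1. The shorter run CACCC was not searched for by itself, and its share over all windows was not counted. It, or GGGTG on the other strand, can be read in every window printed here. In Add2 it lies outside both matches, which lack it on either strand. The Hba-a2 window (chr11:32296242-32296541, plus strand) is the Hba-a1 window shifted by 3 bases, with 297 of 297 overlapping bases the same. The coding sequences of these globin genes, read from the GENCODE transcripts, share 428 of 429 bases. Reads from either copy are therefore hard to assign, and how shared reads were counted is not given in the sources used here. A match is a description of letters and not a bound site.

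Most of the red cell genes were higher in the KO-labelled libraries. Of the 9 genes, 6 rose (Ermap, Car1, Add2, Ank1, Car2 and Slc4a1) and 0 fell by edgeR's quasi-likelihood test at an adjusted p under 0.05, with p-values adjusted over all genes. Over all tested genes 1.97% were called, 0.79% higher and 1.18% lower. The 3 that did not pass were Hba-a1/Hba-a2, Rhag and Alas2. In 8 of the 9 every KO-labelled library lay above every WT library, which held in this direction for 16.5% of all tested genes. The exception was Alas2. The median log2 fold change was 1.08 for the 9 genes and 0.0010 for all tested genes. The genes were listed with earlier results of these libraries known, so these counts describe them and do not test them as a set. In bulk RNA, more cells of a type and more RNA per cell cannot be told apart. The count of 6 fell to 3 without KO library 3, to 0 without WT library 1 and to 1 (Ermap) without WT library 2; those last fits have a lone WT library and take its spread from the KO-labelled ones.

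**Figure D1:**
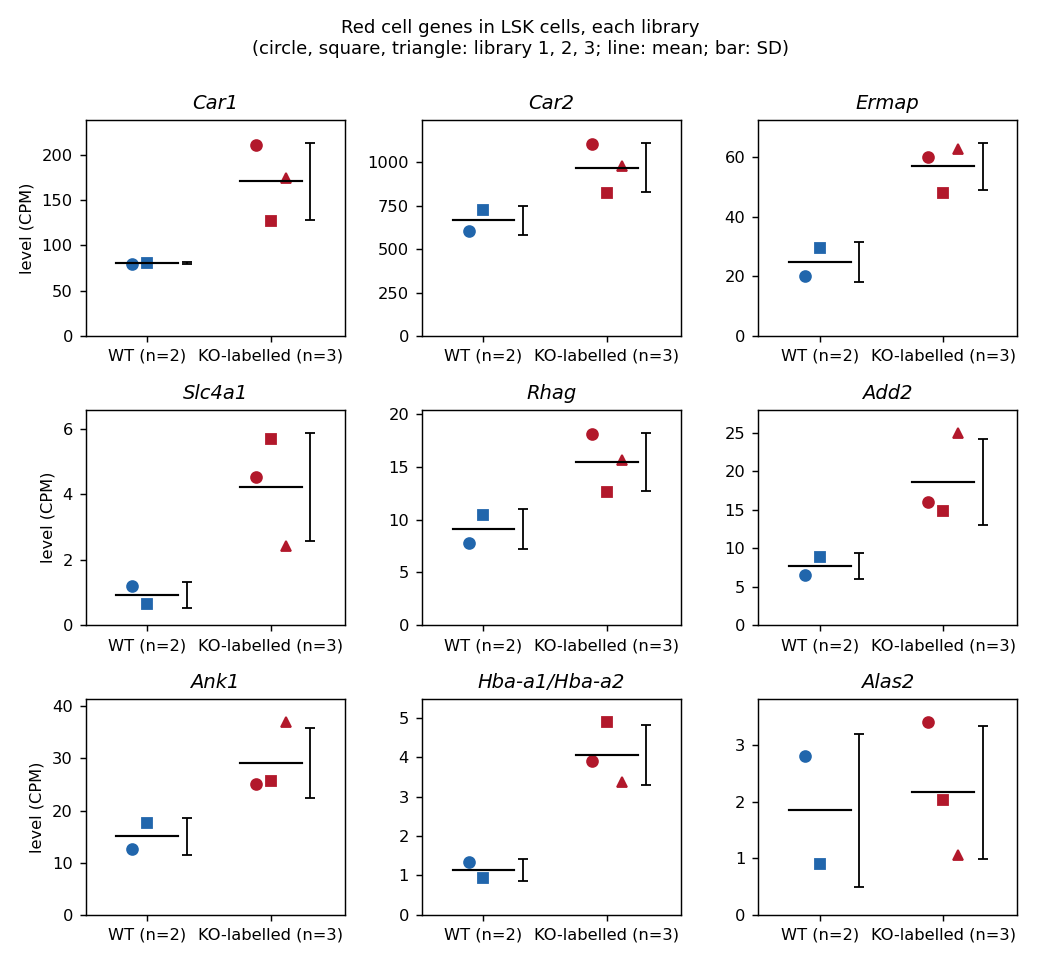
Level of each red cell gene in CPM (y axis, from 0) in the 2 WT and 3 KO-labelled libraries (x axis), with the mean as a line and the SD as a bar. In 8 of the 9 panels all KO-labelled points lie above both WT points, and in the Alas2 panel they overlap.

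The carbonic anhydrases were by far the most abundant of these genes. Car1, the carbonic anhydrase typical of erythroid cells, stood at 210.4, 126 and 174 CPM in KO libraries 1 to 3 and at 79.9 and 80.9 CPM in WT libraries 1 and 2. The WT libraries were nearly equal, and the lowest KO-labelled library lay 1.56-fold above them. Car1 rose by a log2 fold change of 1.08 ± 0.18 (SE, edgeR's quasi-likelihood test, adjusted p = 0.0167). Car2, the fast and widely expressed carbonic anhydrase, stood at 1105, 825 and 979 CPM in KO libraries 1 to 3 and at 606 and 724 CPM in WT libraries 1 and 2. Here the groups lay closer, with 1.14-fold between the nearest libraries. Car2 rose by 0.54 ± 0.12 on the log2 scale (edgeR adjusted p = 0.042). In both genes KO library 1 was the highest and KO library 2 the lowest of the KO-labelled libraries. Per kilobase of transcript, the Car1 level was 22.9% to 28.5% of the Car2 level in the KO-labelled libraries, against 19.7% for WT library 1 and 16.7% for WT library 2, so the ratio also separated the groups. Without WT library 1 or WT library 2, Car1 (adjusted p = 0.248 and 0.181) and Car2 (adjusted p = 0.514 and 0.181) did not pass edgeR's test, and Car2 also did not without KO library 3 (adjusted p = 0.113). Car1 also missed the threshold with no count filter (edgeR adjusted p = 0.0712) and with limma (0.0711), and Car2 with library totals only (edgeR adjusted p = 0.0546) and with summed transcripts (0.0762).

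Car1 and Car2 sit in a cluster of carbonic anhydrase genes in the order Car13, Car1, Car3 and Car2 in the RefSeq annotation of GRCm38. Their neighbours in the cluster were not called. Car13 stood at 17.1 ± 3.46 CPM (SD, n = 3) in KO-labelled and 18.9 ± 2.04 CPM (SD, n = 2) in WT libraries, a log2 fold change of -0.15 with a 95% interval of -0.58 to 0.28. Car3 stood at 7.59 ± 1.07 against 9.19 ± 0.784 CPM, with a log2 fold change of -0.28 (95% interval -0.79 to 0.24). Car4 had 0 counts in every library. None of the other carbonic anhydrase genes tested (Car5b, Car7, Car8, Car9, Car11, Car12, Car14 and Car15) passed.

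Of the membrane proteins, Ermap and Slc4a1 rose and Rhag did not pass. Ermap, an erythroid membrane protein of the butyrophilin-like family that carries the Scianna blood group, stood at 60.0, 48.1 and 62.8 CPM in KO libraries 1 to 3 and at 20.2 and 29.6 CPM in WT libraries 1 and 2. The lowest KO-labelled library was 1.62-fold above the higher WT library. Its log2 fold change of 1.19 ± 0.17 had the smallest p of the 9 genes (edgeR adjusted p = 0.00418). Ermap passed in 14 of 15 alternative settings, the exception being the fit without WT library 1 (edgeR adjusted p = 0.2). Slc4a1, band 3, the chloride and bicarbonate exchanger that is the main integral protein of the red cell membrane, was scarce. It had 164, 223 and 96 counts in KO libraries 1 to 3 and 36 and 25 counts in WT libraries 1 and 2, or 4.54, 5.71 and 2.43 CPM against 1.201 and 0.640 CPM. The KO-labelled libraries differed 2.35-fold among themselves, and all lay above WT. Slc4a1 had the largest change of the 9 genes, a log2 fold change of 2.21 ± 0.52, and passed narrowly (edgeR adjusted p = 0.0499). It passed in 6 of 15 alternative settings and lost its call without KO library 2 (edgeR adjusted p = 0.165), WT library 1 (0.277) or WT library 2 (0.419). Under the 3 other scalings its edgeR adjusted p was 0.0504 to 0.052, with summed transcripts it was 0.106 and with limma 0.127.

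Rhag, the ammonia-transporting glycoprotein that holds the Rh antigens in the membrane, stood at 18.1, 12.6 and 15.7 CPM in KO libraries 1 to 3 and at 7.77 and 10.5 CPM in WT libraries 1 and 2. The groups did not overlap, but the nearest libraries were only 1.21-fold apart. The log2 fold change of 0.76 (95% interval 0.27 to 1.25) did not pass (edgeR adjusted p = 0.131), nor did it in any of the 15 alternative settings. Rhd, the Rh antigen that assembles with Rhag, did rise. It stood at 14.9 ± 1.89 CPM (SD, n = 3) against 6.62 ± 2.001 CPM (SD, n = 2), a log2 fold change of 1.16 ± 0.24 (edgeR adjusted p = 0.0285). Its adjusted p was 0.114 when KO library 3 was left out, 0.399 when WT library 1 was, 0.129 when WT library 2 was and 0.0599 with summed transcripts. Per kilobase, Rhd was at 138% to 155% of Rhag in the KO-labelled libraries and at 103% and 119% in WT libraries 1 and 2. That the change of Rhd differs from that of Rhag was not tested.

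Both of the listed red cell genes that fasten the membrane skeleton, Ank1 and Add2, rose. Ank1, erythroid ankyrin, which links spectrin to band 3, stood at 25.1, 25.6 and 37.0 CPM in KO libraries 1 to 3 and at 12.6 and 17.6 CPM in WT libraries 1 and 2. Its log2 fold change was 0.95 ± 0.21 (edgeR adjusted p = 0.038). Add2, beta adducin, which caps actin filaments and binds them to spectrin, stood at 16, 14.8 and 25.02 CPM in KO libraries 1 to 3 and at 6.57 and 8.90 CPM in WT libraries 1 and 2. Its log2 fold change was 1.26 ± 0.26 (edgeR adjusted p = 0.0245). In both genes KO library 3 stood well above the other KO-labelled libraries, and neither gene passed without it (edgeR adjusted p = 0.17 for Ank1 and 0.118 for Add2), without WT library 1 (0.508 and 0.449) or without WT library 2 (0.168 and 0.188). With summed transcripts Ank1 had an edgeR adjusted p of 0.06. The rows of 2 Add2 transcripts held 52.4% to 81.7% of the counts of the row kept, while the other 3 were equal to it. The widely expressed adducins Add1 and Add3 were not called. Add1 stood at 338 ± 1.09 against 333 ± 11.4 CPM, for a log2 fold change of 0.02 (95% interval -0.15 to 0.18). Add3 had one of -0.05 (95% interval -0.28 to 0.17). The Add2 level per kilobase was 2.09% to 3.54% of that of Add1 in the KO-labelled libraries and 0.962% and 1.24% in WT libraries 1 and 2.

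The alpha globin genes had low counts in every library, and how reads shared by their copies were counted is not given. Hba-a1/Hba-a2 had 141, 191 and 133 counts in KO libraries 1 to 3 and 40 and 37 counts in WT libraries 1 and 2, or 3.90, 4.89 and 3.37 CPM against 1.33 and 0.947 CPM. The groups were 2.52-fold apart at their nearest libraries, the widest gap of the 9 genes. The log2 fold change of 1.83 (95% interval 0.89 to 2.78) did not pass (edgeR adjusted p = 0.0531), although it passed in 4 of 15 alternative settings, among them DESeq2 and the fit without KO library 1 (edgeR adjusted p = 0.0293). The adult beta globin gene Hbb-bs, whose counts were identical to those of Hbb-b1, stood at 11.2, 13.2 and 10.7 CPM in KO libraries 1 to 3 and at 8.71 and 3.71 CPM in WT libraries 1 and 2. The other adult gene, Hbb-bt (identical to Hbb-b2), stood at 9.58, 7.32 and 5.70 against 3.74 and 7.19 CPM, and its groups overlapped. Neither passed (log2 fold change 0.92, edgeR adjusted p = 0.2, and 0.46, adjusted p = 0.606). The embryonic and theta-type globin genes Hba-x, Hbb-bh1, Hbb-bh2, Hbq1a and Hbq1b had 0 counts in every library. Hbb-y had 0 counts in 4 of the 5 libraries and 8 counts in WT library 2.

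Alas2, the erythroid form of the first and rate-limiting enzyme of haem synthesis, was the 1 gene of the 9 whose groups overlapped. It had 123, 79 and 42 counts in KO libraries 1 to 3 and 84 and 35 counts in WT libraries 1 and 2, or 3.41, 2.02 and 1.06 CPM against 2.80 and 0.895 CPM. The libraries of each group differed more than 3-fold among themselves (3.20-fold and 3.13-fold). The log2 fold change was 0.23 with a 95% interval of -1.13 to 1.597 (edgeR adjusted p = 0.92). It turned to -0.25 without KO library 1 and to -0.37 without WT library 2. Alas1, the form of the enzyme used in most tissues, was far more abundant, at 107 ± 13.8 against 122 ± 2.23 CPM (log2 fold change -0.19, 95% interval -0.42 to 0.05). Per kilobase, Alas2 stood at 1.30% to 6.40% of Alas1 across the 5 libraries.

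**Figure D2:**
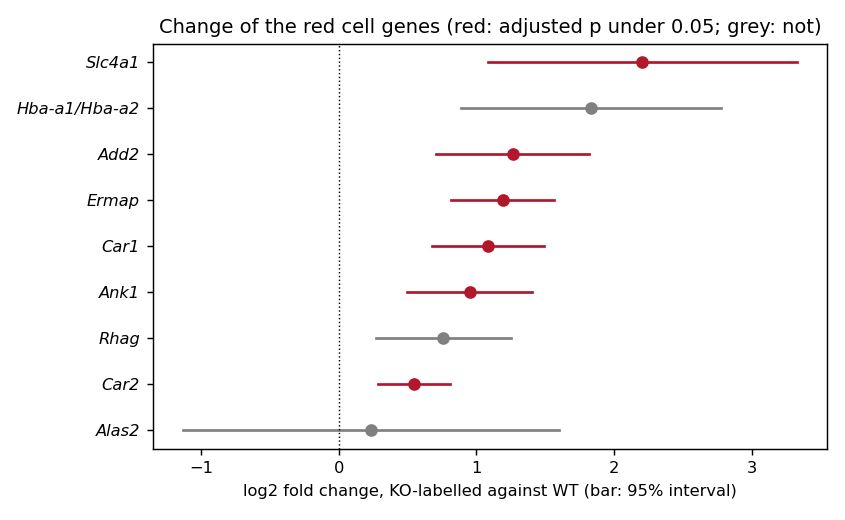
Log2 fold change of each red cell gene, KO-labelled against WT (x axis), with its 95% interval as a bar, red where the adjusted p was under 0.05. Of the 9 intervals, 8 lie above 0 and that of Alas2 spans it, and the intervals of Slc4a1, Hba-a1/Hba-a2 and Alas2 are the widest.

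Levels of different genes were ordered by CPM divided by the length of the kept transcript in kilobases (RPKM). In the KO-labelled libraries the order was Car2 (542 ± 78.5 RPKM, SD, n = 3), Car1 (143 ± 35.4), Ermap (12.5 ± 1.72), Rhag (6.62 ± 1.17), Hba-a1/Hba-a2 (5.80 ± 1.103), Ank1 (4.30 ± 0.989), Add2 (2.28 ± 0.681), Alas2 (1.14 ± 0.622) and Slc4a1 (0.930 ± 0.365). Neighbours overlapped between Rhag and Hba-a1/Hba-a2, between Hba-a1/Hba-a2 and Ank1, and between Alas2 and Slc4a1. The order in WT was Car2 (372 ± 46.7 RPKM, SD, n = 2), Car1 (67.3 ± 0.628), Ermap (5.47 ± 1.46), Rhag (3.90 ± 0.814), Ank1 (2.22 ± 0.520), Hba-a1/Hba-a2 (1.63 ± 0.392), Alas2 (0.977 ± 0.712), Add2 (0.945 ± 0.202) and Slc4a1 (0.202 ± 0.0873). There Ermap overlapped Rhag, and Ank1, Hba-a1/Hba-a2, Alas2 and Add2 overlapped each with the next. In both groups the carbonic anhydrases stood far above the alpha globins and band 3 in the counts given. How reads shared by the alpha globin copies were counted is not known, so their place in the order is uncertain. The Hba-a1 transcript length was used for the alpha globins. With the Hba-a2 length their mean was 7.32 RPKM in the KO-labelled libraries, above that of Rhag, and 2.06 RPKM in WT.

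The 9 genes did not share 1 order of libraries. Among the KO-labelled libraries, Car1, Car2, Rhag and Alas2 were highest in library 1, Ermap, Ank1 and Add2 in library 3, and Slc4a1 and Hba-a1/Hba-a2 in library 2. KO library 2 was the lowest for 5 of the 9 genes. Of the WT libraries, library 2 was the higher for 6 of the 9, and library 1 for Slc4a1, Hba-a1/Hba-a2 and Alas2. Relative to the gene's own mean over the 5 libraries on log2 CPM, Slc4a1 stood at 1.36 in KO library 2 and at -1.70 in WT library 2, and Hba-a1/Hba-a2 at 0.995 and -1.31. Car2 spanned less, from 0.41 in KO library 1 to -0.45 in WT library 1. With 5 libraries these orders are a description.

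**Figure D3:**
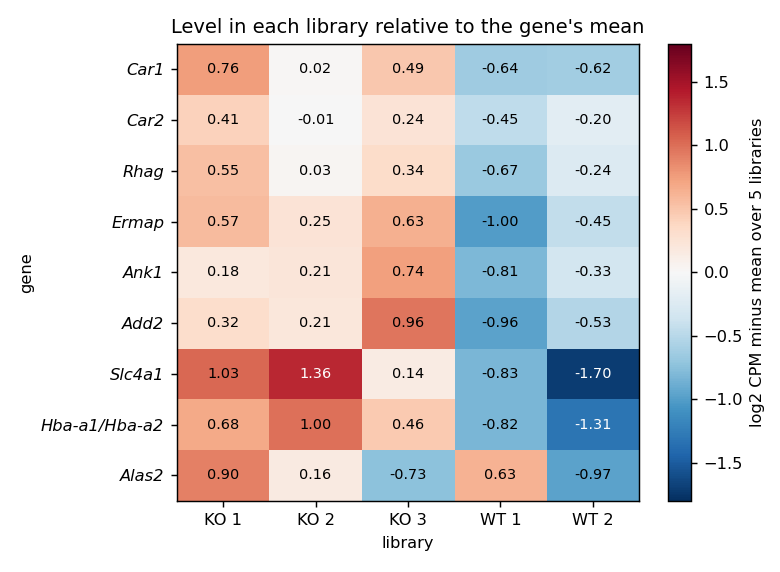
Level of each red cell gene (rows) in each library (columns) as log2 CPM minus the gene's mean over the 5 libraries, with the value printed in each cell. The KO columns are at or above the mean for all genes but Car2 in KO library 2 (-0.01) and Alas2 in KO library 3 (-0.73), and Alas2 is the 1 gene above its mean in a WT library.

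The wider lists of red cell genes contain the genes above, which are counted apart here. Of 31 tested genes of the red cell membrane and skeleton, 5 rose and 0 fell, but 4 of the 5 (Slc4a1, Add2, Ermap and Ank1) were already described. Of the other 26 genes 1 rose, Rhd, against 0.79% of all tested genes. Their median log2 fold change was 0.04 against 0.0010 for all tested genes. In 9 of the 26 the KO-labelled libraries lay above WT without overlap, against 16.5% of all tested genes, and in 1 (Ackr1, named after its values were seen) they lay below, against 16.3%. The water channel Aqp1 (141 ± 36.4 against 78.3 ± 7.44 CPM, log2 fold change 0.84, edgeR adjusted p = 0.0713), the blood group protease Kel (1.15, adjusted p = 0.122) and the beta spectrin chain Sptb (0.94, adjusted p = 0.131) did not pass. The broadly expressed skeleton gene Epb41, protein 4.1, stood at 388 ± 26.5 against 391 ± 2.30 CPM (log2 fold change -0.01, 95% interval -0.19 to 0.17). The count of 5 in the whole list was 2 without KO library 3, 0 without WT library 1, 1 without WT library 2 and 9 with DESeq2.

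Of 16 tested red cell enzymes and genes of gas exchange, 3 rose and 0 fell, against 0.79% and 1.18% of all tested genes. Apart from Car1 and Car2, 1 of 14 rose, Pklr, the pyruvate kinase of red cells and liver, and the median log2 fold change of these 14 was 0.05. Pklr stood at 32.9, 20.9 and 29.5 CPM in KO libraries 1 to 3 and at 12.5 and 13.7 CPM in WT libraries 1 and 2. Its groups did not overlap, and its log2 fold change was 1.08 ± 0.20 (edgeR adjusted p = 0.0141). Bpgm, which makes the 2,3-bisphosphoglycerate that loosens oxygen from haemoglobin, stood at 47.7 ± 3.78 against 47.3 ± 5.13 CPM (log2 fold change 0.01, 95% interval -0.25 to 0.28). Leaving out KO library 3 brought the count of 3 to 1, and leaving out WT library 1 or WT library 2 brought it to 0.

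The haem and iron genes held no call, where 1.97% of all tested genes were called in either direction. None of 20 tested haem synthesis genes, Alas2 among them, passed in either direction (median log2 fold change 0.08). Of these the mitochondrial carrier Slc25a39 (123 ± 2.05 against 129 ± 2.04 CPM) and Alas1 were the most abundant. Cpox, coproporphyrinogen oxidase, stood at 74.3 ± 7.29 against 56.2 ± 2.82 CPM, for a log2 fold change of 0.40 (edgeR adjusted p = 0.109). None of 14 tested genes of iron uptake and storage passed (median 0.02), and the transferrin receptor Tfrc stood at 93.1 ± 4.55 against 97.7 ± 8.66 CPM (log2 fold change -0.07, 95% interval -0.28 to 0.14). The most abundant were the ferritin heavy chain Fth1 (761 ± 75.1 against 655 ± 8.98 CPM, log2 fold change 0.22, edgeR adjusted p = 0.294) and the iron chaperone Pcbp2 (691 ± 36.2 against 714 ± 8.38 CPM, log2 fold change -0.05). Of 5 separately counted globin and globin-handling genes, the alpha globins among them, none passed either (median 0.49); the haem-regulated kinase Eif2ak1 had a log2 fold change of 0.07 and the biliverdin reductase Blvrb one of 0.49 (edgeR adjusted p = 0.178).

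Of 33 genes of the same families 24 were tested, of which 1 rose, Rhd, and 2 fell. Over all tested genes 0.79% were called higher and 1.18% lower. The median log2 fold change was -0.23 for the 24 genes and 0.0010 for all tested genes. The genes that fell are bicarbonate transporters of the band 3 family. Slc4a7, a sodium bicarbonate cotransporter, stood at 52.7 ± 7.49 against 83.9 ± 11.8 CPM (log2 fold change -0.67 ± 0.13, edgeR adjusted p = 0.0214). Slc4a8, a sodium-driven chloride bicarbonate exchanger, stood at 6.17 ± 1.53 against 13.5 ± 1.31 CPM (-1.13 ± 0.25, adjusted p = 0.0385). Slc4a2, the anion exchanger of most tissues, stood at 49.2 ± 6.58 against 43.4 ± 14.5 CPM (log2 fold change 0.18, 95% interval -0.23 to 0.59). Per kilobase, Slc4a1 was at 4.39% to 9.97% of Slc4a2 in the KO-labelled libraries and at 3.33% and 1.095% in WT libraries 1 and 2. The falls of Slc4a7 and Slc4a8 did not pass without KO library 3 (edgeR adjusted p = 0.0762 and 0.125), WT library 1 (0.484 and 0.312) or WT library 2 (0.137 and 0.382), and that of Slc4a8 also not without KO library 2 (0.0778). With summed transcripts the edgeR adjusted p was 0.0589 for Slc4a7 and 0.075 for Slc4a8, and with the length offset it was 0.0927 for Slc4a8.

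**Figure D4:**
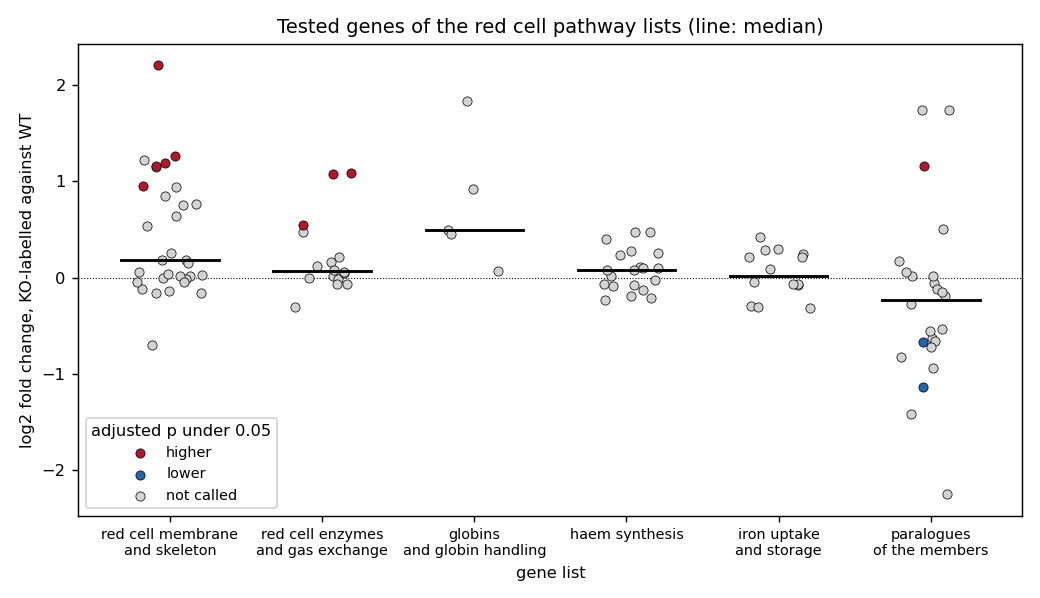
Log2 fold change, KO-labelled against WT (y axis), of each tested gene in 6 gene lists (x axis), with the list median as a line and colours for genes past the adjusted p of 0.05. The called genes lie among the membrane and enzyme genes and the paralogues, while the haem synthesis and iron genes have medians near 0 (0.08 and 0.02) with none called.

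Markers of cell types that the gate could hold were read beside these genes. Over all tested genes 0.79% were called higher and 1.18% lower. Of 17 early erythroid progenitor markers, 7 rose and 0 fell, and their summed level was 1818 to 2308 CPM in the KO-labelled and 1367 to 1566 CPM in the WT libraries. The list holds 6 of the 10 red cell genes, and without them the sum was 766 to 906 CPM against 634 to 694.5 CPM. Of the 7 calls 5 are among these genes, and the others were the transcription factors Klf1 (log2 fold change 1.502 ± 0.29, edgeR adjusted p = 0.0169) and Gfi1b (0.77 ± 0.12, adjusted p = 0.00657). Apart from the red cell genes 11 markers were tested, with a median log2 fold change of 0.40, and all but Klf1 and Gfi1b were not called. The calls of Klf1 and Gfi1b were not followed through the alternative settings. Of 13 erythroblast and reticulocyte markers 1 rose, Slc4a1, and the summed level overlapped, at 453 to 489.9 CPM against 439 to 457 CPM; none was at 0. Of these 13 genes 11 had a log2 fold change above 0 (median 0.46), against 50.13% of all tested genes. In 5 the KO-labelled libraries lay above WT without overlap and in 0 below, against 16.5% and 16.3% of all tested genes. Apart from the 3 red cell genes in this list, 3 of the other 10 lay above without overlap and 0 were called. The broadly expressed genes Xpo7, Tfrc and Bnip3l held 84.6% to 90.9% of the sum. Without these 3, which were picked after their values were seen, the sum was 64.5 to 75.4 CPM against 41.8 to 47.05 CPM, and 3 of the 10 that remained are red cell genes described above. Of 15 tested megakaryocyte and platelet markers 3 (Gp1ba, Itga2b and Selp) fell and 0 rose (961 to 1392 CPM against 1428 to 1693 CPM in sum), with Gp6 at 0 counts in every library. Of 16 granulocyte and monocyte markers 5 (Ctsg, F13a1, Prtn3, S100a8 and S100a9) fell and 1 (Ly6c2) rose (3326 to 4103 CPM against 4760 to 5131 CPM), and none was at 0. Of 8 tested mast cell and basophil markers 1 rose, Il1rl1, and 0 of 12 tested lymphoid markers and 0 of 15 markers of stem and multipotent cells passed, the last at 6298 to 6380 CPM against 6285 to 6376 CPM. The part of these cell types in the levels of the red cell genes was not tested.

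The genes with the pattern most like the mean of the 9 genes were found by the root mean square difference of centred log2 CPM over the 5 libraries. The nearest was Dynll1, a dynein light chain, at a difference of 0.0857 (72.7 ± 6.84 against 32.5 ± 2.38 CPM). Then came Mir678 (0.0947), the heat shock protein Hsph1 (0.1001; 305 ± 23.3 against 127 ± 4.08 CPM), Tpt1 (0.121) and Clec4a2 (0.121). Mir678, Tpt1 and Clec4a2 stood under 4 CPM. None of these is a gene of the red cell lists above. The single members differed more from their own mean profile, from 0.180 for Car1 to 0.769 for Alas2. The 5 genes were picked as the nearest of all other tested genes, so this contrast is set by the choice.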

How the data were processed

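LSK cells were sorted, and libraries were made from their RNA with a stranded mRNA kit, per the labels' protocols. The deposited table holds raw read counts made by the authors for 33862 RefSeq transcripts in 5 libraries (3 titled KO, 2 titled WT); no other sample columns were present. The build was mm9 (NCBIM37), and the tools named are featureCounts, Subread 1.4.5-p1 and STAR, per the submitters' processing notes. No source used here gives strand use or the treatment of shared reads, so antisense or near-identical genes cannot be told apart.

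Transcripts were named from the RefSeq table of GRCm38 (33485) or GENCODE (188); 189 unmatched ones, 0.362% to 0.459% of counts, stayed as rows of their own. The transcript with the most counts was kept per gene. The two-sided quasi-likelihood test of edgeR 4.0.16 (robust fit, R 4.3.3) was run on genes that filterByExpr kept, with TMM scaling, and p-values were adjusted over all of them by Benjamini-Hochberg. SE is the log2 fold change over the root of F. Lengths for RPKM came from GENCODE transcripts. In counts simulated for this design over 14565 genes, 62% of genes changed 2-fold and 18% of those changed 1.5-fold were recovered, and 4.11% of calls fell on unchanged genes. The simulation gave every gene the same spread and changed only genes above a low level. These shares need not hold for genes whose libraries vary more, such as Slc4a1 and Alas2.

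The members and lists were chosen with earlier results of these data known. Named genes were the members, every called member of a pathway list, the most abundant members of pathway lists with fewer than 2 calls, the globins and the 5 genes of nearest pattern. The called cell type markers, paralogues and other uncalled genes named beside them were chosen after their values were seen. Alternatives were other scalings, no filter, DESeq2 1.42.0, limma 3.58.1 with sample weights, a replicate block, summed transcripts, a length offset, another threshold and each library left out. Some genes are not reported here.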

Additional observations from a re-analysis of the deposited data

How the results depend on the processing

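All 9 red cell genes kept their direction in the 15 alternative settings except Alas2, at -0.25 without KO replicate 1 and from -0.37 (without WT replicate 2) to 1.27 (without WT replicate 1); 29 of 135 single-gene results lost a call and 4 gained one. Scaling moved the median of all genes by less than 0.02. With each library left out, all genes called ranged from 6 to 675, members called higher from 0 to 7, members called lower stayed at 0, membrane genes called higher from 0 to 6 and lower from 0 to 1, enzymes higher from 0 to 3, globins and haem genes higher from 0 to 1, iron genes from 0 to 1 in each direction, and paralogues from 0 to 1 higher and 0 to 2 lower. The replicate block, made from the titles' numbers, left 160 genes, 2 members (Car1 and Ermap), 1 membrane gene, 1 enzyme and 0 paralogues in either direction. That fit has 1 residual degree of freedom, and KO library 3, alone in its block, adds nothing to its group difference. Calls lost to a batch and calls lost to the smaller design cannot be told apart there. The 2 pairs of equal number had correlations of deviations of 0.0405 and 0.0166. With 2 WT libraries both values rest on the same WT difference, so they cannot show whether equal numbers mean a shared batch. Summed transcripts left 3 members, 2 membrane genes and 0 paralogues. With no count filter 455 genes passed, with 8 membrane genes, 1 haem gene (Cpox) and 1 globin (Hba-a1); with DESeq2 575, with 9, 1 (Cpox) and 1 (Hba-a1). limma with sample weights called 624 genes, 1 haem gene (Cpox), 1 globin (Hbb-bs) and 1 iron gene in each direction. The length offset called 1 paralogue lower, and an adjusted p under 0.10 called 454 genes and 1 globin. Slc4a1, the alpha globins and Alas2 had 25 to 223 counts per library, which limits their precision.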
